A study of Mus musculus with 10 samples.

Results

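CD4+ lymphocytes of the thymus were compared with CD4+ lymphocytes of the spleen by their dimethylation of histone H3 at lysine 4 (H3K4me2), measured by chromatin immunoprecipitation and sequencing. Each organ gave 1 library, and the comparison takes the peak list deposited for each. Peaks lying within 500 bp of each other were merged, giving 23748 regions, out of 30062 when the peaks of all 8 libraries of the series are merged. Per the labels, both samples are CD4+ lymphocytes from Gata3-YFP/YFP mice, which carry a yellow fluorescent reporter at the gene of the transcription factor Gata3. The mice had airway inflammation, the fractions were sorted by flow cytometry, and the antibody was anti-H3K4Me2 (Abcam ab32356) in both. The agent that caused the inflammation, the age of the mice, the number of animals behind a library and the sort gates are not given in the labels. In particular, the labels do not say whether cells that also carry CD8 were removed from the thymus sort. The other 6 libraries, of cells labelled naive T, T helper 2 (Th2) and group 2 innate lymphoid cells (ILC2s) from bronchoalveolar lavage and mediastinal lymph node, serve here as a reference for where else a region was called.

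H3K4me2 lies over promoters and enhancers and often spreads over whole genes that define a cell's identity. It marks elements that are open or available, and it does not measure transcription. T cells mature in the thymus, where precursors rearrange their receptor genes with the Rag recombinase, pass through a stage that carries both the CD4 and the CD8 coreceptor, and are then selected on self ligands. Survivors settle on 1 coreceptor, acquire the receptors that let them leave the thymus, and recirculate through the spleen and lymph nodes as naive cells or differentiate into effector, memory, regulatory and follicular helper cells.

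The promoters of 6 genes show the stretch of sequence at the centre of the contrast. They are the 3 tallest regions called in the thymus alone and the 3 shared regions with the lowest thymus to spleen ratio, among genes of the lists used here whose region held a single start site in the RefSeq promoter table (GRCm38.p6, which has mm10 coordinates). The 250 bases before each start site are printed 5′ to 3′ on the strand of the gene, in lower case. Capitals mark matches, on either strand, to short motifs of factor families active in T cells. The E-box forms are CAGCTG with the variant form CACCTG, and the RUNX motif is TGTGGT. The TCF/LEF motif is CTTTGA, and the ETS motif is CCGGAA. The GATA forms are AGATAA with the variant form TGATAA. The KLF motif is CACCC, and the CRE motif is TGACGTCA. Overlapping matches are each counted. The stretches are chr2:101649533-101649782 on the minus strand for Rag1, chr6:71373177-71373426 on the plus strand for Cd8a, and chr17:46763713-46763962 on the minus strand for Ptcra. They are chr19:11443308-11443557 on the plus strand for Ms4a4b, chr9:14903768-14904017 on the minus strand for Izumo1r, and chr3:89913197-89913446 on the minus strand for Il6ra. The first 3 lie in regions called in the thymus alone, and the last 3 lie in regions far higher in the spleen.
Rag1: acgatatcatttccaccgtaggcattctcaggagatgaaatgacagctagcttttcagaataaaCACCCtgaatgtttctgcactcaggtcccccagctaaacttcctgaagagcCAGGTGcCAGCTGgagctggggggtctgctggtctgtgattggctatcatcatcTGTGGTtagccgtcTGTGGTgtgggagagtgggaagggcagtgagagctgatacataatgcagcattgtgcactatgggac
Cd8a: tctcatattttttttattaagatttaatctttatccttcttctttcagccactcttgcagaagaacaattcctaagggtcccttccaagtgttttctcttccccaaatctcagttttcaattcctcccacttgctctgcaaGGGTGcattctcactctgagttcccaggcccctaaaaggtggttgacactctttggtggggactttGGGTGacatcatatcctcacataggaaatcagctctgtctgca
Ptcra: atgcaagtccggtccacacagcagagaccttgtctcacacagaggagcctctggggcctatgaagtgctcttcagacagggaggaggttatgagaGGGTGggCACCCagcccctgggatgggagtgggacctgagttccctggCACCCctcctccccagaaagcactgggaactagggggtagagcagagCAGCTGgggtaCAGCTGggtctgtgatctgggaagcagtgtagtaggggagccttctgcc
Ms4a4b: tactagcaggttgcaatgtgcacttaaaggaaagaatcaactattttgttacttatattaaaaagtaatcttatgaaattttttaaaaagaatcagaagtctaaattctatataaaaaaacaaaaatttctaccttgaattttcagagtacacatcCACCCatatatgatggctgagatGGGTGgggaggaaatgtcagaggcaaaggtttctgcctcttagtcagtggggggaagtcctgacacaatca
Izumo1r: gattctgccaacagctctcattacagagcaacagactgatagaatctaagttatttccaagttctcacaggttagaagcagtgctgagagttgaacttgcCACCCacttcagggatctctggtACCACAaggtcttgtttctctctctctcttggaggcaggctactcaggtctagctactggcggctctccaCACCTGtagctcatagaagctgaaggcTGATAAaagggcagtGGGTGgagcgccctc
Il6ra: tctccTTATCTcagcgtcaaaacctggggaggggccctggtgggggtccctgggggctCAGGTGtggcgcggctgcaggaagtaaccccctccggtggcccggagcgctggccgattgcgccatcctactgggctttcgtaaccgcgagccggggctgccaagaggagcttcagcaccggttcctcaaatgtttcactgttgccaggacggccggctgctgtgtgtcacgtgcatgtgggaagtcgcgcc

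The letters CACCC occurred in 5 of these 6 stretches, Il6ra being the exception, and in 52.0% of all 32851 promoters of the table. Rag1 held 2 matches to TGTGGT (14% of all promoters), 1 to CAGCTG (13%) and 1 to CACCTG (17.2%), and Ptcra held 2 to CAGCTG. Izumo1r held 1 match to the E-box form CACCTG, 1 to the RUNX motif and 1 to the GATA form TGATAA (7.94%), and Il6ra held 1 to CACCTG and 1 to the GATA form AGATAA (9.99%). The TCF/LEF, ETS and CRE motifs, present in 13.8%, 12% and 1.55% of all promoters, had no match in the 6. A match is a description of the letters and shows no binding.

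The 2 lists were of similar size. The thymus list held 20723 peaks from 19036573 tags and the spleen list 20418 peaks from 21451958 tags. The deposited value of a peak is its normalized tag count, the tags in it scaled to 10000000 tags in the library, and a region's value is the sum over its peaks in that library. The share of tags in peaks was 53.27% in the thymus and 44.18% in the spleen, and the fragment length estimated by the peak finder was 98 and 180 bp. The minimum for a peak was 76 tags in the thymus and 86 in the spleen, which comes to 39.9 and 40.1 per 10000000. A region that was not called therefore need not lack signal: it missed this minimum or another criterion. Some listed peaks had values under this minimum, down to 35.2 in the thymus and 36.4 in the spleen. With 1 library per organ there is no replicate, so no difference below has a test or a p-value, and the intervals printed are 95% intervals for counting error alone. Organ, library, share of tags in peaks and IgG background cannot be told apart.

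Most regions were common to both organs. Of the 23748 regions, 16928 (71.3%) had a peak in both libraries, 3550 (14.9%) were called in the thymus alone and 3270 (13.8%) in the spleen alone. At shared regions the thymus value was 1.22-fold higher at the median (0.29 on the log2 scale), and log2 ratios of thymus over spleen given here are centred on that median unless stated. The centred ratios had an SD of 0.69, with 90% of regions, the 5th to the 95th percentile, between -1.26 and 0.96. The thymus was higher by 2-fold or more at 781 shared regions (4.61%) and the spleen at 1309 (7.73%). Without centring the split was 1354 to 796, so the balance of the shared regions depends on the centring. Differences of 4-fold or more numbered 141 toward the thymus (0.833%) and 237 toward the spleen (1.4%). Counting regions called in 1 organ together with shared regions 2-fold apart, 4331 regions (18.2%) lay on the thymus side and 4579 (19.3%) on the spleen side, and these shares are the background for every gene list below.

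**Figure D1:**
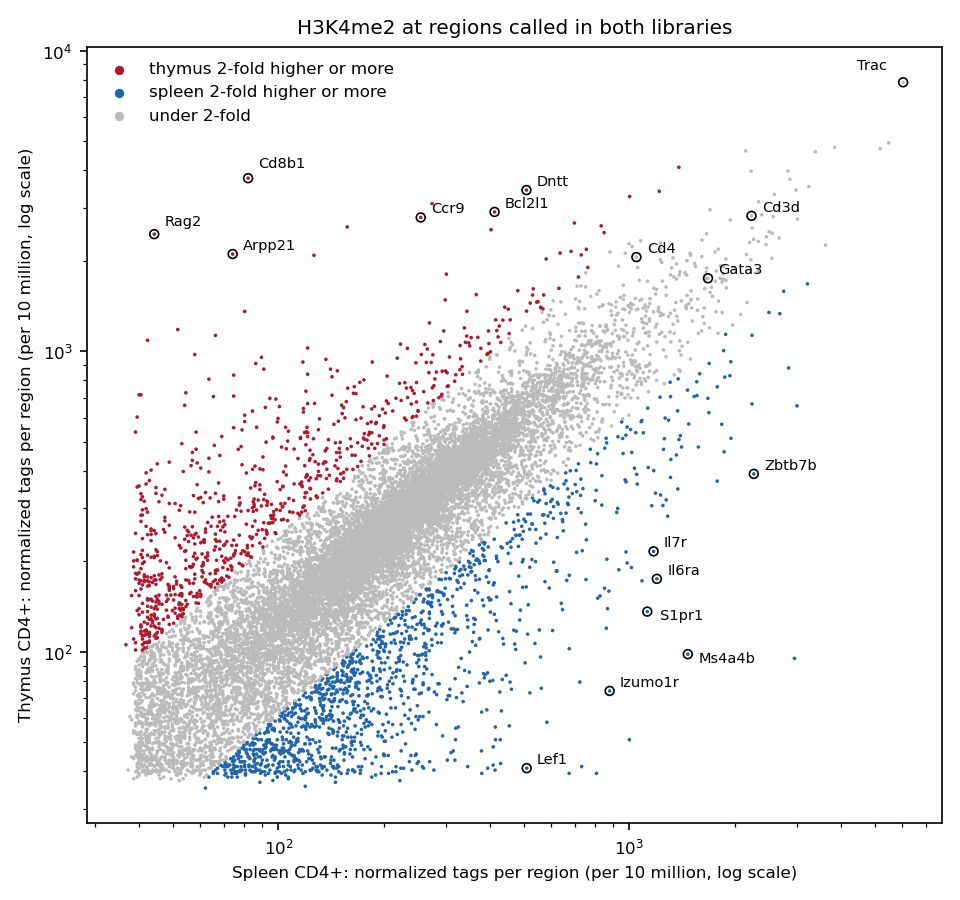
Each point is 1 of the 16928 regions called in both libraries, with its summed normalized tags (per 10000000 tags) in spleen CD4+ cells (x axis) and thymus CD4+ cells (y axis), both on log scales. Red points were 2-fold or more higher in thymus and blue points in spleen after centring on the median; Rag2 (44.3 in spleen, 2453.2 in thymus) and Cd8b1 (82.0 and 3767.0) sit far above the grey band, and Izumo1r, Ms4a4b and the labelled Lef1 region far below it.

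The regions 2-fold apart also differed in called width, which the selection on summed tags favours, since a wider called peak holds more tags and a weaker signal is called over a shorter stretch. All 781 regions higher in the thymus were covered more widely by thymus peaks, with a median width of 3.79 kb against 1.51 kb in the spleen. Of the 1309 regions higher in the spleen, 1305 (99.7%) were wider in the spleen, at 2.72 kb against 1.5 kb in the thymus. Per kb of called peak, the median log2 ratio was 0.43 in the former set, against 1.4 for the summed tags, and -0.59 in the latter, against -1.41. At a threshold of 2-fold per kb, 40 regions remained on the thymus side and 138 on the spleen side. The regions within 2-fold had near equal median widths of 2.59 and 2.55 kb.

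Regions called in 1 organ were mostly short, low and away from start sites. Their median value was 66.2 tags in the thymus and 61.1 in the spleen, and 61.4% and 67.7% of them lay under 80 tags. A start site of the RefSeq promoter table lay in 9.72% of the thymus-only and 8.38% of the spleen-only regions, compared with 53.0% of the shared ones. Among shared regions at least 2-fold apart the share was 29.6% on the thymus side and 29.8% on the spleen side. Genes here are protein-coding genes and antigen receptor constant genes, and non-coding genes were left out. No such gene lay within 100 kb of 8.7% of the thymus-only, 6.09% of the spleen-only and 2.44% of the shared regions. A small fraction was tall: 277 thymus-only and 132 spleen-only regions exceeded 200 tags.

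Each region was given to the gene closest to it, up to 100 kb away, with every gene kept where several overlapped, and the genes were gathered in 24 lists by function. Closeness is a matter of position, and no link between an enhancer and its target was measured. A gene may stand in several lists. A gene is said to be on the thymus side when at least 1 of its regions was on that side and none on the other. Counts by gene therefore depend on the number of regions per gene, and no share over all genes was computed.

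**Figure D2:**
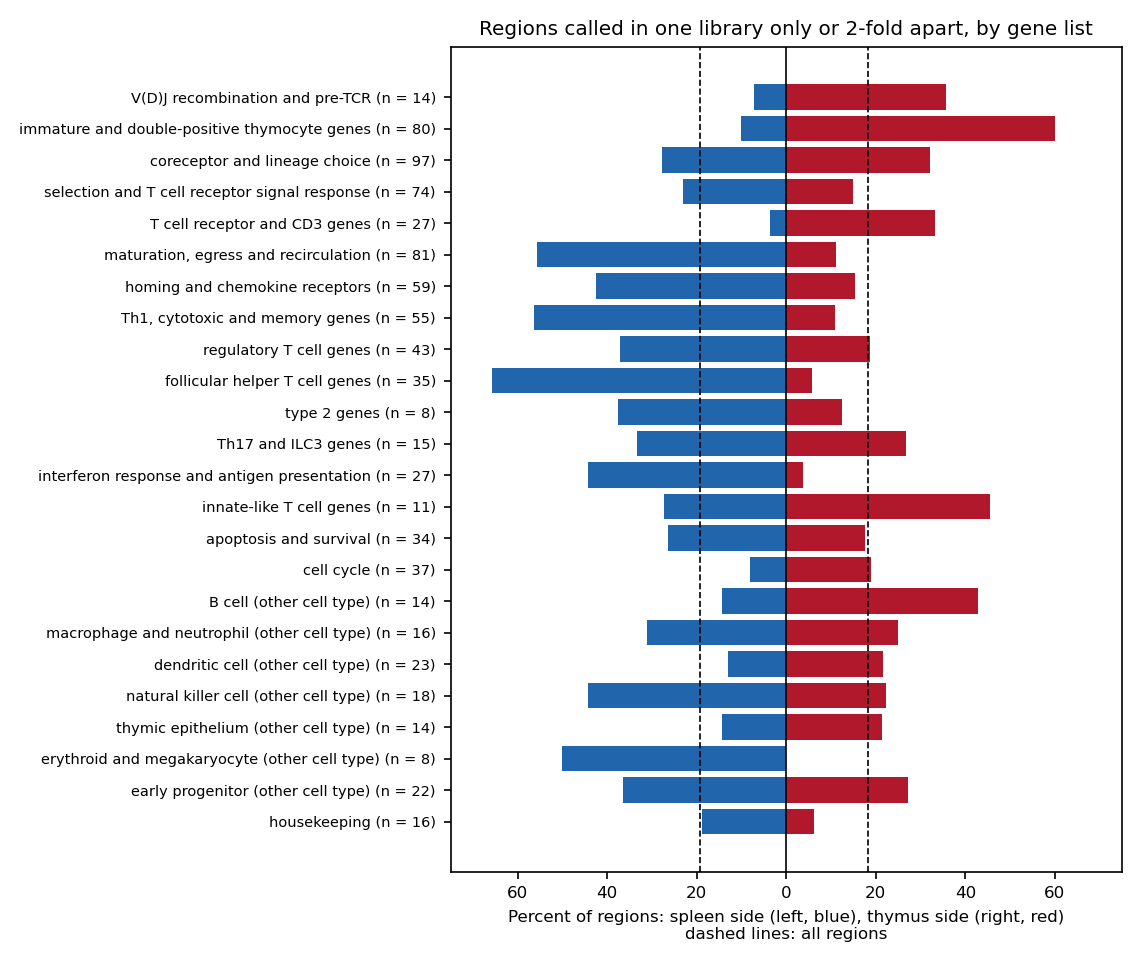
Bars give, for each gene list (number of its regions in parentheses), the percent of regions on the thymus side (right, red) and on the spleen side (left, blue); dashed lines mark 18.2% and 19.3%, the shares over all regions. Immature and double-positive thymocyte genes extend farthest to the right (48 of 80 regions), and follicular helper T cell genes farthest to the left (65.7%).

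Among the genes of V(D)J recombination, Rag1 and Rag2, which encode the recombinase that cuts receptor gene segments, stood in neighbouring domains of the thymus. The region over Rag1 (chr2:101636249-101653398) held 2284.0 tags over 17.1 kb in the thymus (interval 2216.6 to 2352.9) and was not called in the spleen. The region over Rag2 (chr2:101615169-101632918), which also overlaps Iftap, held 2453.2 tags in the thymus and 44.3 in the spleen. Its log2 ratio of 5.50 (interval 5.21 to 5.81), a 45.3-fold difference, was the highest of the shared regions with at least 200 tags in 1 library, and its called width was 17.7 kb against 1.0 kb. Per kb of peak its log2 ratio was 1.39. Both Rag regions were broad thymus domains that in the spleen were uncalled or 1 short peak. Dntt, the terminal transferase that adds untemplated bases at receptor junctions, held 3438.6 tags over 27.5 kb in the thymus and 509.1 over 7.0 kb in the spleen (log2 ratio 2.46, interval 2.37 to 2.56). Ptcra, the partner of the receptor beta chain in the pre-receptor, was called in the thymus alone at 331.5 tags (interval 306.1 to 358.4). Among repair enzymes of the joining step, Lig4, the ligase of end joining, held 1174.6 tags in the thymus and 495.5 in the spleen (log2 ratio 0.95), and Xrcc4, its partner, 402.4 and 295.1 (0.16). Dclre1c, the nuclease Artemis that opens hairpin ends, had a thymus-only region of 83.0 tags beside 2 shared regions within 2-fold, the taller with 380.3 and 242.4 (0.36). Of the 11 genes of this list, 5 were on the thymus side, 1 on the spleen side and 5 within 2-fold. The spleen-side gene was Poll, a repair polymerase, at 1 of its 2 regions (117.1 and 231.7 tags). By region, 5 of 14 (35.7%) lay on the thymus side and 1 (7.14%) on the spleen side, with a median log2 ratio of 0.35 over the 11 shared regions, or 0.06 per kb of peak.

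The CD8 coreceptor genes formed a block of H3K4me2 in the thymus library although it is labelled CD4+. Cd8b1, the beta chain of CD8, lay in a region of 3767.0 tags and 26.7 kb in the thymus and of 82.0 tags and 1.7 kb in the spleen (log2 ratio 5.23, interval 5.01 to 5.45). Cd8a, the alpha chain, had 2 regions called in the thymus alone. The region over the gene (chr6:71369033-71380781) held 1810.7 tags (interval 1750.8 to 1872.2), and the one 8602 bp away, on the side of Cd8b1, held 1777.6. A further thymus-only region at Cd8b1 held 266.9 tags, and Rmnd5a, the neighbour on the other side of Cd8a, had one of 1334.3 tags. Across the window drawn for the locus, 5 peaks were called in the thymus and 1 in the spleen. In bulk chromatin, a mark on a few cells and a weaker mark on every cell cannot be told apart, and the share of cells in the sort that carried CD8 was not tested.

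**Figure D3:**
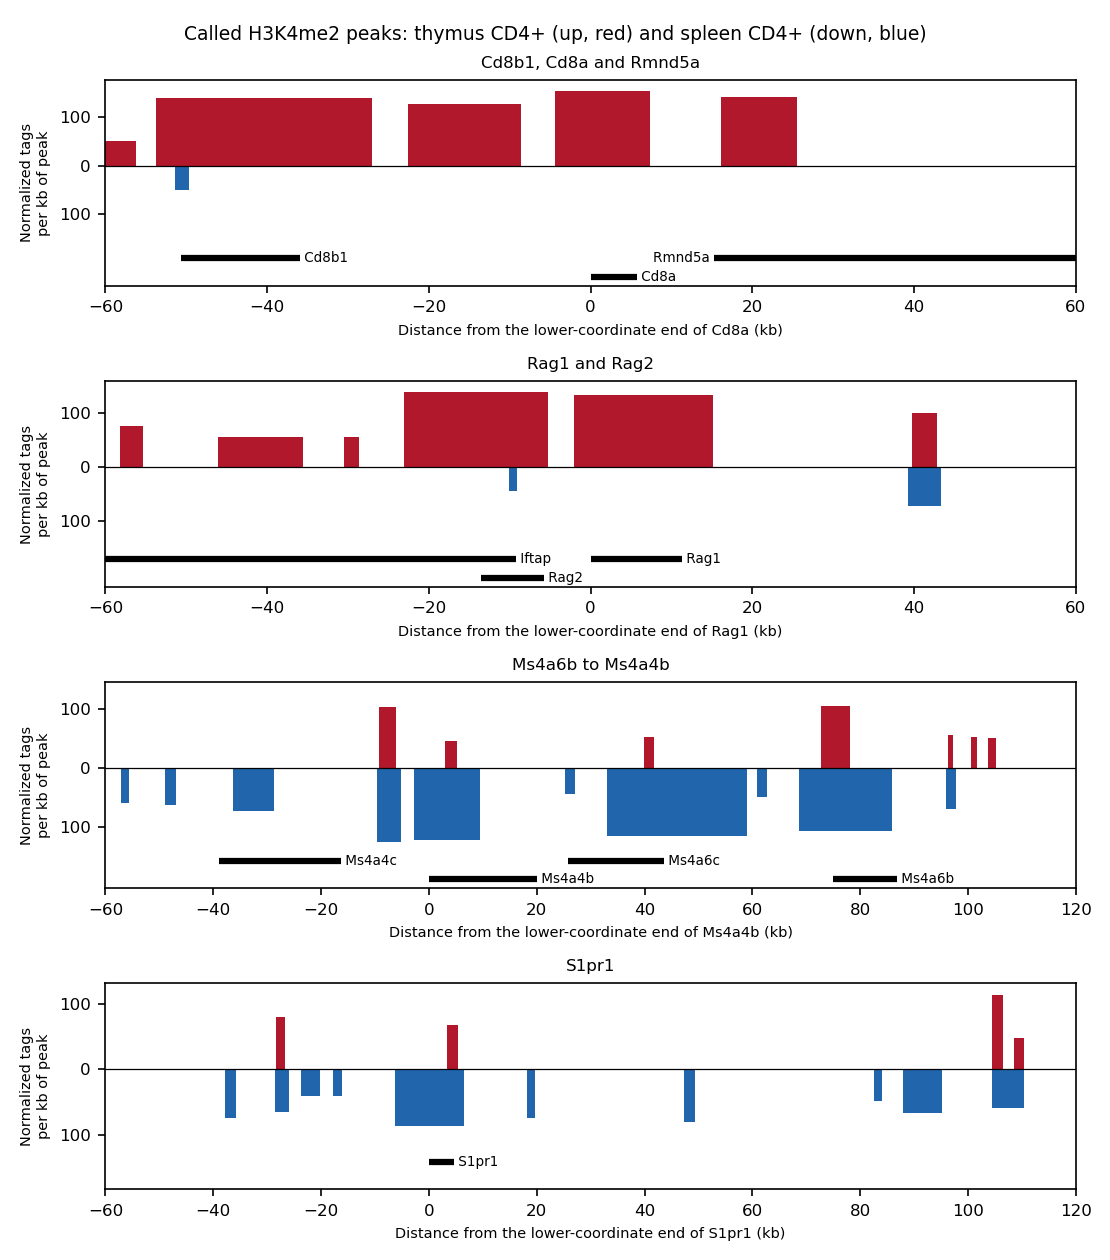
Called peaks at 4 loci, drawn to scale by distance in kb from 1 gene (x axis) with normalized tags per kb of peak (y axis) upward in red for thymus CD4+ and downward in blue for spleen CD4+; black bars are genes. Broad thymus peaks cover Cd8b1, Cd8a, Rag1 and Rag2, where the spleen has a short peak or none, and broad spleen peaks cover Ms4a4b, Ms4a6c, Ms4a6b and S1pr1, where the thymus peaks are shorter.

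Other genes of immature and double-positive thymocytes leaned the same way. Ccr9, a chemokine receptor that holds thymocytes in the thymus and directs cells to the gut, held 2787.8 tags in the thymus and 254.5 in the spleen (log2 ratio 3.16, interval 3.03 to 3.29). Arpp21, which encodes an RNA-binding phosphoprotein and hosts a microRNA gene, had 2 regions high in the thymus, at 2106.5 and 74.1 tags (4.54) and at 2085.5 and 126.3 (3.75). Its remaining region was higher in the spleen, at 44.1 and 176.7 tags (-2.29). Bcl2l1, the survival protein Bcl-xL of double-positive cells, was on the thymus side at all 4 of its regions, the tallest with 2908.1 and 413.0 tags (2.52, interval 2.42 to 2.63). The thymus domains given first for Ccr9 and Bcl2l1, and both tall ones of Arpp21, were 13.3 to 21.9 kb wide.

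The transcription factors of this list had several regions each, and the regions past 2-fold were mostly on the thymus side. Tcf12, an E protein that works with the pre-receptor programme, had 7 of 10 regions on the thymus side, the tallest with 1056.4 and 222.8 tags (log2 ratio 1.95). Ets2 had 6 of 10, the tallest with 976.0 and 255.5 tags (1.64), and Sox4 had 4 of 6, the tallest, 61905 bp from the gene, with 1542.8 and 366.4 tags (1.78). Myb, needed for progression of early thymocytes, had 5 of 9 on the thymus side and 1 on the spleen side. Themis, an adaptor that tunes receptor signals during selection, was on the thymus side at 3 of 4 regions, but its tallest region was within 2-fold, at 1920.0 and 931.8 tags (0.75). Notch3, a receptor of early thymocytes, held 520.1 and 121.2 tags (1.81) at its tallest region. Dtx1 and Cd38 went the other way. Dtx1, a target and regulator of Notch signalling, held 153.4 tags in the thymus and 825.1 in the spleen (-2.72) at its tallest region, and Cd38, an ectoenzyme, was called in the spleen alone at 204.2 tags.

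Over the whole list of 22 immature and double-positive thymocyte genes, 13 were on the thymus side, 2 on the spleen side, 5 had regions on both sides and 2 were within 2-fold. Of their 80 regions, 28 were called in the thymus alone and 5 in the spleen alone. Of the 47 shared, 20 were 2-fold or more higher in the thymus and 3 in the spleen, with a median log2 ratio of 0.75. That puts 48 of 80 regions on the thymus side and 8 on the spleen side, beside 18.2% and 19.3% of all regions. Per kb of peak, the median was 0.15, with 6 shared regions past 2-fold toward the thymus.

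Genes of coreceptor and lineage choice split by gene. Cd4 itself was marked in both organs: its taller region held 2057.6 tags in the thymus and 1047.5 in the spleen (log2 ratio 0.68), and its other region 686.0 and 223.8 (1.32, interval 1.17 to 1.48). Zbtb7b, which encodes ThPOK, the factor that fixes the CD4 helper fate, was the opposite of the CD8 genes. It held 390.8 tags over 7.6 kb in the thymus and 2262.7 over 19.0 kb in the spleen (-2.82, interval -2.94 to -2.71), and was lower in the thymus per kb too (-1.46). Runx3, the factor of the CD8 fate, had 9 regions, 4 of them thymus-only (39.9 to 55.7 tags) and 1 spleen-only (119.8), and was within 2-fold at its tallest region, at 353.5 and 431.2 tags (-0.58). Runx1, its relative in immature thymocytes, had 5 of 13 regions on the thymus side and 4 on the spleen side. Among the former was one of 697.1 and 94.6 tags (2.59), while its tallest region held 930.3 and 1029.3 (-0.44).

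Gata3, whose locus carries the reporter in these mice, did not differ by 2-fold at either of its regions, with 1749.8 tags in the thymus and 1674.9 in the spleen over the gene (-0.23). Tox, which acts in the commitment of selected thymocytes, had no thymus-side region and 7 spleen-only regions of 51.3 to 264.8 tags, while its tallest region held 733.3 and 692.7 tags (-0.21). Lef1 was mixed within a single locus. The region over its start held 1749.3 and 1812.0 tags (-0.34), and 1 region inside the gene held 41.0 and 510.0 (-3.93, interval -4.28 to -3.60). A further 5 regions at Lef1 were called in the spleen alone and 3 in the thymus alone. Tcf7, its relative and an early factor of the T cell lineage, had 2 of 5 regions on the thymus side and was level at the tallest, at 3438.6 and 2984.3 tags (-0.09). Of the 19 genes of this list, 6 were on the thymus side, 2 on the spleen side, 6 had both and 5 were within 2-fold. By region 32.0% were on the thymus side and 27.8% on the spleen side of 97, with a median of 0.05. When regions more than 10 kb from a gene are left unassigned, the thymus side is 22.7%, below the spleen side of 31.8%.

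The genes of the receptor complex itself were nearly level at their tallest regions. The region holding Trac, the constant gene of the receptor alpha chain, together with J segments was the tallest of both lists, with 7852.3 tags in the thymus and 6026.5 in the spleen (log2 ratio 0.09, interval 0.06 to 0.12). The region of Cd3d and Cd3g held 2822.5 and 2228.2 tags (0.05), and that of Cd3e 1013.8 and 682.5 (0.28). Cd3e had 2 further regions called in the thymus alone, of 212.2 and 118.7 tags. The region of Trbc1 and Trbc2, the beta chain constants, held 3971.8 and 2222.2 tags (0.55). The list of 11 genes also holds costimulatory and adaptor genes outside the complex. Of the 11, 4 were on the thymus side, none on the spleen side, 1 had both and 6 were within 2-fold. Of the 18 shared regions 1 was past 2-fold. Of 27 regions, 8 were called in the thymus alone and 1 in the spleen alone, beside 14.9% and 13.8% of all regions. Apart from the 2 at Cd3e, these regions called in 1 organ all lay at the costimulatory and adaptor genes.

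The variable segments upstream of these constant genes differed from them. These loci were chosen after their values had been seen. Over all regions, 14.9% were called in the thymus alone and 13.8% in the spleen alone. The receptor alpha and delta locus on chromosome 14 held 26 regions, of which 21 were called in the thymus alone, none in the spleen alone and 5 in both. Of the 21, 16 lay over V segments, and the values ran from 38.9 tags to 566.3 at the region over Trdj1, a J segment of the delta chain. Those at Trav17, with 394.0 tags, and at Trav3-4 and Trav12-4, with 191.7, had no peak in any of the other 6 libraries, as did 9 of the 21 in all. Others had a peak in the lymph node naive T library, some with more tags there than in the thymus. The region at Trav14-1 held 82.5 tags in the thymus and 148.3 in that library, and the one at Trav13n-4 held 58.3 and 127.6. The beta locus on chromosome 6 held 12 regions, 4 thymus-only and 2 spleen-only, and the gamma locus on chromosome 13 held 5, 4 of them thymus-only. The immunoglobulin heavy chain locus on chromosome 12 held 27 regions, 12 thymus-only and 7 spleen-only. Its region over Ighm and Ighj4 was present in both organs, with 1124.2 tags in the thymus and 722.1 in the spleen (0.35). No region was called in the kappa and lambda loci. Many V segments are near-identical copies, so tags could be split or lost among them, and how the authors treated such tags is not given in the sources used here. T cells rearrange these receptor genes, and how much of the unrearranged DNA each sort retained was not measured.

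Genes that respond to receptor signals during selection showed no common direction. Cd5, a negative regulator whose level follows the strength of self recognition, was lower in the thymus at all 3 regions, with 791.6 and 1556.0 tags at the tallest (log2 ratio -1.27, interval -1.36 to -1.18). Cd69, an early activation marker that also retains cells in the thymus, held 774.8 and 730.9 tags (-0.21) over the gene and was within 2-fold at all 4 regions. Nr4a3, an immediate target of receptor signals, held 969.7 and 991.1 tags (-0.32) at its tallest region and had 2 spleen-only regions. Pdcd1, the inhibitory receptor PD-1, held 164.4 and 508.6 tags (-1.92) over the gene, was level at a region beside it, and had 2 spleen-only regions. Of 20 genes, 5 were on the thymus side, 7 on the spleen side, 2 had both and 6 were within 2-fold. By region 14.9% were on the thymus side and 23.0% on the spleen side of 74. The median was -0.13 centred and 0.16 without centring.

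Genes of maturation, thymus egress and recirculation lay mostly on the spleen side. S1pr1, the receptor for sphingosine 1-phosphate that draws cells out of the thymus, held 136.1 tags over 2.0 kb in the thymus and 1124.8 over 12.8 kb in the spleen (log2 ratio -3.34, interval -3.53 to -3.15). It had 6 spleen-only regions around it, of 61.1 to 170.6 tags, and 2 shared regions within 2-fold. Klf2, the factor that drives S1pr1, held 239.0 and 558.5 tags at the gene (-1.52, interval -1.67 to -1.36). Of the 4 regions of Klf2, 1 was spleen-only and 1 thymus-only. Il7r, the receptor for the survival cytokine interleukin 7, held 215.9 and 1172.4 tags (-2.73, interval -2.89 to -2.58). Il6ra, an interleukin 6 receptor chain, held 174.9 and 1198.0 tags (-3.07) at the region that contains the promoter printed above, and 2 more of its 4 regions were spleen-only. These loci share a thymus signal 2.0 to 3.8 kb wide where the spleen domain is 6.5 to 12.8 kb wide at the regions named.

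Homing receptors and survival genes followed. Ccr7, the chemokine receptor for T cell zones, held 910.4 tags in the thymus and 1688.9 in the spleen (-1.18, interval -1.27 to -1.10). Of the 7 regions of Ccr7, 2 were spleen-only and 1 thymus-only. Itgb7, an integrin beta chain of gut homing, held 480.2 and 1408.7 (-1.84). Bcl2, the survival protein of mature T cells, had 6 spleen-only regions of 41.5 to 261.5 tags, and its tallest region held 588.3 and 1085.2 (-1.17). Bcl2 and Bcl2l1 thus stood on opposite sides. Foxo1, a factor that maintains naive T cells and their Il7r, held 523.7 and 1397.5 tags (-1.71) at its tallest region and had 4 spleen-only regions and 1 thymus-only region.

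The Ms4a cluster on chromosome 19, which encodes membrane proteins, was higher in the spleen at each region named here. The region over Ms4a6c and Gm8369 (chr19:11476592-11502480) held 95.1 tags over 1.9 kb in the thymus and 2954.5 over 25.9 kb in the spleen. Its log2 ratio of -5.25 (interval -5.47 to -5.04), 38.0-fold lower in the thymus, was the lowest of all. Ms4a4b held 98.2 and 1467.5 tags (-4.19, interval -4.41 to -3.98) and Ms4a6b 571.5 and 1833.4 (-1.97). Ms4a4c had a spleen-only region of 565.4 tags. Ly6a, the surface protein Sca-1, had a spleen-only region of 525.4 tags and also 1 thymus-only region. The Ms4a, Ly6 and class I histocompatibility families contain close copies, so the assignment of tags among them is uncertain.

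Over the 24 genes of the maturation list, 13 were on the spleen side, 2 on the thymus side, 5 had both, 3 were within 2-fold, and 1, Qa2, is no entry of the gene table used. The thymus-side genes were Il6st, a shared cytokine receptor chain, and Klf3, a repressor of the Klf family. Of 81 regions, 25 were spleen-only and 8 thymus-only, and of the 48 shared, 20 were 2-fold higher in the spleen and 1 in the thymus. This gives 55.6% on the spleen side and 11.1% on the thymus side, with a median of -0.61, or -0.31 without centring and -0.22 per kb of peak, by which 3 shared regions were past 2-fold toward the spleen. The list of 21 homing and chemokine receptors had 42.4% of 59 regions on the spleen side and 15.3% on the thymus side, with a median of -0.25 that became 0.04 without centring. Ccr9 was among its 4 thymus-side genes.

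Among Th1, cytotoxic and memory genes, Il2rb, the interleukin 2 and 15 receptor chain of memory cells, was called in the spleen alone at 3 regions, with up to 468.0 tags. Fasl, the death ligand, had a spleen-only region of 293.2 tags over the gene, and Cxcr6, a receptor of effector cells, 2 of 193.5 and 67.6. Il18r1, an interleukin 18 receptor chain, held 43.6 and 303.0 tags (log2 ratio -3.09, interval -3.44 to -2.76) at a region it shares with the neighbouring gene Il1rl1, which encodes the interleukin 33 receptor. Tbx21, the master factor T-bet of Th1 cells, was within 2-fold at its taller region, at 240.6 and 288.1 tags (-0.55). Its other region was spleen-only, at 40.1 tags. Of 23 genes of the Th1, cytotoxic and memory list, 14 were on the spleen side and 3 on the thymus side, namely Ccl3, Ccl4 and Il12rb2. By region 56.4% of 55 were on the spleen side and 10.9% on the thymus side, with a median of -0.58. Per kb of peak the median was -0.06, and 1 shared region in place of 8 was past 2-fold toward the spleen.

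Follicular helper genes had the highest share on the spleen side of the 24 lists. Cd40lg, the ligand by which helper T cells signal to B cells, was the tallest spleen-only region near a gene, with 923.9 tags over 13.7 kb (interval 883.7 to 965.5). Icos, a costimulatory receptor, was on the spleen side at all 7 regions, 5 of them spleen-only, with 203.3 and 863.3 tags at the tallest (-2.38). Btla, an inhibitory receptor, held 282.6 and 1286.1 tags (-2.48, interval -2.61 to -2.34). Bcl6, the master factor of these cells, was within 2-fold. Of 11 genes, 8 were on the spleen side and 2 on the thymus side. By region 65.7% of 35 lay on the spleen side and 5.71% on the thymus side, with a median of -0.79. Per kb of peak the median was -0.28, and 0 shared regions in place of 8 were past 2-fold toward the spleen.

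Regulatory T cell genes were mixed. Foxp3, the defining factor of these cells, was called in the spleen alone at 102.1 tags (interval 89.0 to 116.5), and the costimulatory receptors Tnfrsf9 and Tnfrsf4 had spleen-only regions of 421.4 and 307.2 tags. Izumo1r, the folate receptor 4 of regulatory and naive T cells, held 74.1 and 878.7 tags (-3.86, interval -4.12 to -3.61). Il2ra, the interleukin 2 receptor alpha chain, had 1 region of 84.6 and 384.1 tags (-2.47), 2 regions higher in the thymus (both 1.31) and was level at its tallest, at 527.9 and 510.9 (-0.24). Ctla4, an inhibitory receptor, held 163.9 and 496.5 tags (-1.89) and had 2 spleen-only regions. Of 14 genes, 7 were on the spleen side, 1 on the thymus side and 4 had both, which is 37.2% and 18.6% of 43 regions. The median was -0.51, or -0.11 per kb of peak.

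Genes of the interferon response and antigen presentation had 12 of 27 regions on the spleen side (44.4%) and 1 on the thymus side (3.7%), with a median of -0.87, or -0.21 per kb of peak with 2 shared regions in place of 7 past 2-fold toward the spleen. Nlrc5, the activator of class I genes, held 187.5 and 933.2 tags (-2.61, interval -2.77 to -2.44), Ifi27l2a, an interferon-induced gene, 56.7 and 455.0 (-3.30) at 1 of its 2 regions, and Ifit1, another, 127.1 and 417.7 (-2.01). H2-K1, a class I heavy chain, held 271.1 and 645.6 tags (-1.54), while the region shared by Tap1, Tap2, Psmb8 and Psmb9, which process and load peptides, was level at 2846.1 and 2383.4 (-0.04). When every gene within 50 kb of a region is counted, the spleen side of this list is 25%.

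The type 2 and Th17 lists were sparse. Il4, Il13, Il9, Il10 and Ptgdr2 had no region in either organ, and Il5 had 1 thymus-only region of 58.8 tags. Ccr8, a chemokine receptor of type 2 and regulatory cells, held 56.2 and 325.8 tags (-2.83, interval -3.13 to -2.53). Il17a, Il17f, Il22, Il1r1 and Ccr6 had no region. In the Th17 list, Rora, a nuclear receptor, had 5 spleen-only regions of 42.0 to 62.0 tags, Il23r, an interleukin 23 receptor chain, had 2 thymus-only regions, and Ahr, a ligand-activated factor, was within 2-fold.

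Cell cycle and survival genes stood closer to the background. Of 37 cell cycle regions, 7 (18.9%) were on the thymus side and 3 (8.11%) on the spleen side, with a median of 0.20. Ccnd3, the cyclin of proliferating thymocytes, was level at its tallest region, at 3977.6 and 2829.1 tags (0.20), and 1 region of Cdk6, its kinase, held 336.7 and 66.2 (2.06). Of 34 apoptosis and survival regions, 17.6% were on the thymus side and 26.5% on the spleen side. Actb, Gapdh, Ppia and Polr2a, genes that every cell uses, had log2 ratios of -0.17, 0.25, -0.21 and 0.33 at their tallest regions, in that order. The housekeeping list had a median of 0.00 over 14 shared regions, with 1 region on the thymus side and 3 on the spleen side of 16.

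Lists of markers of other cells that could be present in either sort gave mixed values. Over 7 such lists, 22 of 71 genes had no region in either organ, and of 115 regions 28 were on the thymus side and 32 on the spleen side. Of the B cell list, 6 of 14 regions (42.9%) were on the thymus side and 2 on the spleen side, beside 18.2% and 19.3% of all regions. Its tallest regions were at Cd79a, a chain of the B cell receptor, with 1148.8 tags in the thymus and 1111.8 in the spleen (log2 ratio -0.24), and at Ighm, given above, while Cd79b, the other chain, held 199.1 and 41.5 (1.97). The B lineage genes Blk and Blnk had 1 thymus-only region each, of 49.4 and 45.2 tags, Ebf1 had 2 thymus-only regions and 1 spleen-only, and Pax5 had 1 of each. Ms4a1, Cd22 and Fcer2a, surface proteins of mature B cells, had none. In the macrophage and neutrophil list, Itgam, an integrin chain, had 4 thymus-only regions of 38.9 to 191.2 tags and 1 spleen-only, and Lyz2, Csf1r, Adgre1 and Mpeg1 had none. Of the 13 genes of that list, 2 were on the spleen side, 0 on the thymus side and 1, Itgam, had both.

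In the thymic epithelium list, Aire, the regulator of self-antigen expression, had a thymus-only region of 46.2 tags and Epcam, an adhesion protein, had 2 of 4 regions on the thymus side, whereas Krt5, Krt8 and Psmb11 had none. Of the 9 genes of that list, 2 were on the thymus side and 2 on the spleen side. Its 14 regions were 21.4% on the thymus side and 14.3% on the spleen side, beside 18.2% and 19.3% of all regions. Kit, the receptor of early progenitors, had 3 thymus-only regions of 42.0 to 193.3 tags. Of the 10 genes of the early progenitor list, however, 4 were on the spleen side, 2 on the thymus side and 2 had both. Its 22 regions were 36.4% on the spleen side and 27.3% on the thymus side. Gata1, the erythroid factor, had a spleen-only region of 52.7 tags, Hba-a1 and Pf4 had none, and Ncr1 of natural killer cells had none. Of the 8 genes of the erythroid and megakaryocyte list, 3 were on the spleen side and 0 on the thymus side. Of the 8 natural killer genes, 4 were on the spleen side, 2 on the thymus side and 1 had both. Their 18 regions were 44.4% on the spleen side and 22.2% on the thymus side. The summed tags of the B cell list were 3205.5 in the thymus and 2367.6 in the spleen, those of the macrophage and neutrophil list 1663.3 and 1405.7, and those of the dendritic cell list 3898.7 and 2990.0. They were 2134.8 and 2285.7 for the natural killer list, 2584.0 and 1853.6 for thymic epithelium, 553.2 and 747.3 for the erythroid list and 2933.9 and 2407.0 for early progenitors. These sums are not centred, and at the median shared region the thymus value was 1.22-fold higher. The part of such cells in the differences above was not tested.

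The other 6 libraries had called most of the spleen-only regions and a minority of the thymus-only regions. Of the 3550 thymus-only regions, 2275 (64.1%) had no peak in any of them, compared with 64 of 3270 spleen-only regions (1.96%). The library of cells labelled naive T from the lymph node had a peak in 92.2% of the spleen-only and 23.1% of the thymus-only regions, with median values there of 83.7 and 46.3 tags. The naive T library of the lavage covered 46.2% and 5.07%, the Th2 libraries 33.5% to 34.5% and 4.54% to 4.56%, and the ILC2 libraries 49.1% to 49.5% and 16.3% to 16.5%. The share called in ILC2s was thus above that in Th2 cells for both kinds. It was so for shared regions too, at 85.4% to 85.6% against 71.8% to 72.1%. A peak in both ILC2 libraries and in none of the 4 T cell libraries was found at 203 thymus-only regions (5.72%). The same held for 31 spleen-only (0.948%) and 13 shared regions (0.0768%). All 6 libraries had a peak in 667 spleen-only regions (20.4%) and in 23 thymus-only regions. Shared regions were called in the lymph node naive T library at 99.7%. The spleen list was called against spleen IgG and the other 7 against thymus IgG.

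**Figure D4:**
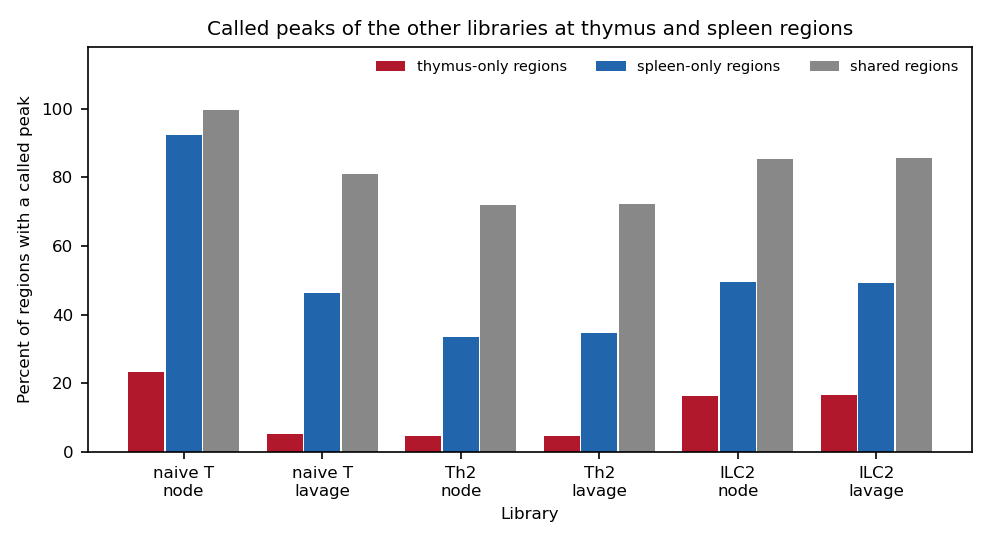
Bars give the percent of thymus-only, spleen-only and shared regions (colours) with a called peak in each of the other 6 libraries (x axis). In the lymph node naive T library the spleen-only regions reach 92.2% and the thymus-only regions 23.1%.

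The tallest regions of each organ showed the same contrast in single values. Beside Rag1, thymus-only regions among the 10 with the most tags lay over Endou, an endoribonuclease gene (2131.7), at both Cd8a regions, over Mad1l1, a mitotic checkpoint gene (1689.4), and over Xrcc6, the end-joining protein Ku70 (1680.4). Medag (1472.4), Rapgef3 (1365.3) and Rmnd5a followed. Of these 9 regions, 8 had no peak in any of the other 6 libraries, and the exception was Rapgef3, with 59.6 tags in ILC2s of the lymph node.

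Of the 10 tallest spleen-only regions, all had a peak in the lymph node naive T library and 5 in all 6. The tallest (chr15:60164937-60181363) had no protein-coding or receptor constant gene within 100 kb. It held 1459.5 tags in the spleen, 2036.6 in lymph node naive T cells and 92.4 in those of the lavage, with no peak in Th2 cells or ILC2s. Cd40lg held 826.4 to 1322.4 tags in the naive T and Th2 libraries and had no peak in ILC2s. Rapgef6 (920.7 tags in the spleen), Nt5e (700.2), which encodes the ectoenzyme CD73, Ly6a and Tank (503.5), an adaptor of NF-κB signalling, were called in all 6. Art2b (706.7), an ADP-ribosyltransferase of T cells, held 911.7 tags in lymph node naive T cells and 40.1 to 46.9 in ILC2s.

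**Figure D5:**
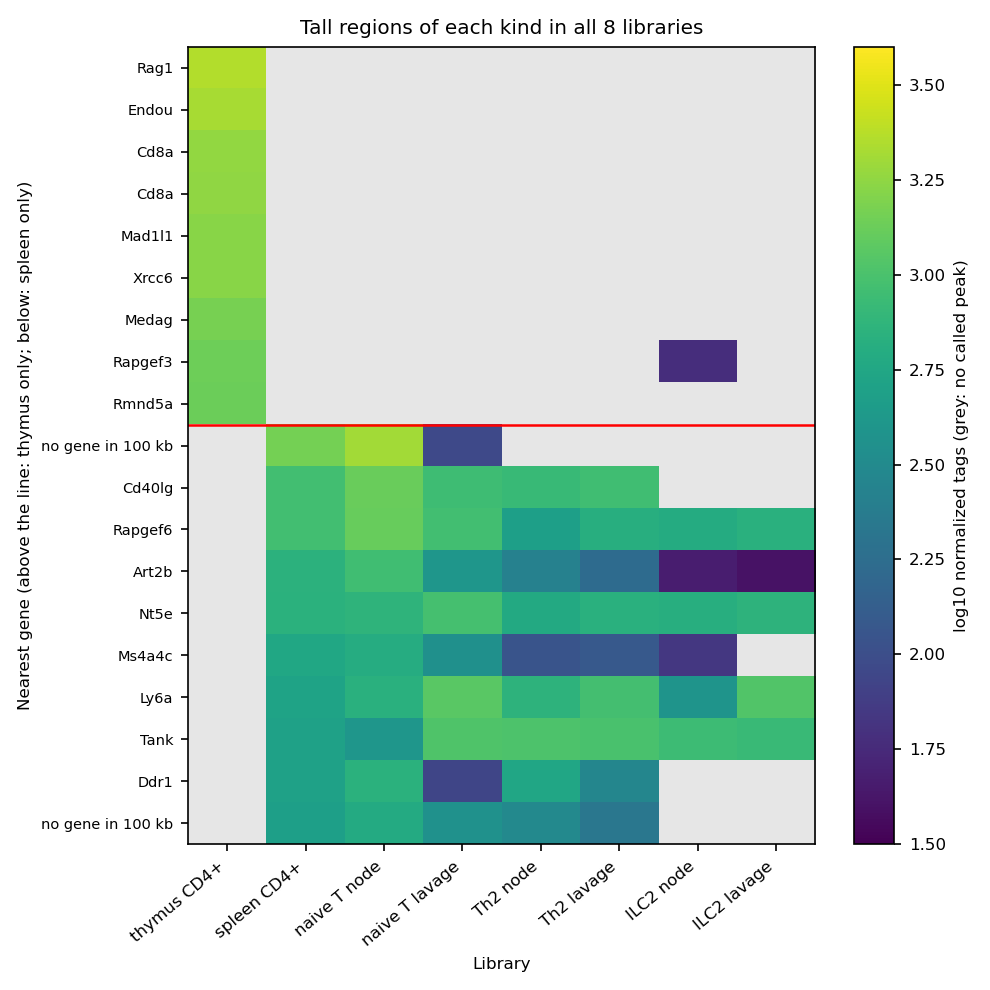
Colours give the log10 normalized tags of 9 of the 10 tallest thymus-only regions (above the line) and the 10 tallest spleen-only regions (below) in each of the 8 libraries, with grey where no peak was called. The upper rows are nearly empty outside the thymus, and the lower rows are filled in the lymph node naive T library throughout.

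Among shared regions with at least 200 tags in 1 library, the highest ratios after Rag2, Cd8b1 and Arpp21 were at Chrna9, a nicotinic receptor subunit (1087.9 and 42.4 tags, 4.39), and Map3k20, a stress kinase (1181.9 and 51.7, 4.22). Per kb of peak the log2 ratios were 1.26 at Cd8b1, 0.82 at this Arpp21 region, 1.41 at Chrna9 and 0.55 at Map3k20. The lowest after the Ms4a6c region were at Gm1966 (39.4 and 806.0 tags, -4.65) and at Slfn1, of a family that holds T cells quiescent (51.0 and 1000.4, -4.59). They were followed by a region 30531 bp from Pttg1 (41.5 and 731.4, -4.43) and one at Ifit1bl1 (39.4 and 673.6, -4.39). Per kb of peak the log2 ratios from Gm1966 to Ifit1bl1 were -1.92, -1.97, -0.78 and -1.54, in that order. Of the 10 highest, 9 had a peak in the lymph node naive T library and none in Th2 cells. Of the 10 lowest, all 10 had a peak in the former and 9 in Th2 cells. The 10 highest were wide thymus domains of 6.2 to 26.7 kb, against 1.0 to 1.7 kb in the spleen.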

How the data were processed

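The labels describe 10 samples, of which 8 have a deposited peak list. The reads were mapped with Bowtie and the peaks called with HOMER on mm10, per the submitters' processing notes, which give no versions. Per the file headers, peaks were called in region mode with a size of 1000 bp, a minimum distance of 2500 bp, at least 4-fold enrichment over IgG and an FDR of 0.001, on tag directories whose names mark duplicates as removed. The spleen list was called against a spleen IgG and the thymus list against a thymus IgG, and both report 0 peaks filtered by input. The deposited signal is the normalized tag count, scaled by the authors to 10000000 tags per library. The deposited score of the peak finder, the fold change over the control and the p-value against it, all as the authors' caller gave them, served only to describe peaks. How tags with several matches were treated is not given in the sources used here.

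Peaks of both lists within 500 bp were merged, and a region's value is its summed normalized tag count. The log2 ratio of thymus over spleen was centred on the median of shared regions. Dividing by the value of 1 tag gave whole tags for 100% of peaks within 0.11 tags, and intervals are exact Poisson intervals for a value and Clopper-Pearson intervals for a ratio at 95%, covering counting error only. Gene names and positions came from the RefSeq table of GRCm38.p6, with 21907 genes, protein-coding or antigen receptor constant, and 307 genes in 24 lists. Of these, 4 (Qa2, Mx1, Tcrg-C1 and Tcrg-C2) did not match the table. Genes named are those of the lists and the 10 tallest or most different regions of each kind with at least 200 tags. The regions, lists and genes were chosen with earlier results of these data known. The steps were tested on simulated data. Python 3.11.15, numpy 2.4.6, pandas 2.3.3, scipy 1.17.1 and matplotlib 3.10.9 were used. Alternatives varied the threshold, merging, centring, width scaling and gene assignment. The IgG samples' own data were not analysed here, and a few genes of the lists are counted but not reported by name.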

Additional observations from a re-analysis of the deposited data

How the results depend on the processing

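No paired analysis was possible because each organ gave 1 library and no test was made. The counts of regions called in 1 organ stayed within 1.5 times under other merging rules but, with at least 80 normalized tags required in the calling library, were 1370 for the thymus and 1055 for the spleen, fewer by construction. Shared regions 2-fold higher in the thymus and in the spleen numbered 1354 and 796 without centring, 40 and 138 by tags per kb of peak, and 141 and 237 at 4-fold. Of 192 list shares, 188 stayed within the counting interval of the main share. The exceptions were the thymus side of the coreceptor list at 22.7% and of the type 2 list at 0% with genes within 10 kb, and, with every gene within 50 kb, the spleen side of the interferon list at 25% and the thymus side of the innate-like list at 15.4%. That interval is wide for lists of few regions, so staying within it says little. The side with the larger share was the same under all alternatives for 19 lists. It changed or became equal under at least 1 alternative for 5: the coreceptor, innate-like, thymic epithelium, macrophage and neutrophil, and housekeeping lists. Of 336 log2 ratios for 84 named regions, 5 reversed, all by tags per kb: Capg 0.19, Erg -0.14, Gzmb 0.14, Maf 0.53 and Prdm1 0.03. The cause was not tested. Called in none of the other 6 libraries, when judged by overlap alone, an alternative chosen after seeing the data, were 64.6% of thymus-only and 1.96% of spleen-only regions. Signal that missed the caller's criteria is not listed, so a region called in 1 organ may hold signal in the other.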

Other observations

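Some genes outside the lists had many regions called in 1 organ alone. In the thymus Ahi1, a gene next to Myb that encodes a ciliary protein, had 9 thymus-only regions of 57.8 to 533.7 tags, and Jazf1, a zinc finger gene, had 8 of 64.1 to 685.0. In the spleen Bach2, a repressor that keeps T cells naive, had 16 spleen-only regions among 24, of 39.6 to 327.2 tags, and Inpp4b, a lipid phosphatase gene, had 11 among 14. Btg1 and Dock10 followed with 8 each. These counts are not adjusted for gene length, and the genes were picked by their counts, so they carry no test.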
